A study of Canis lupus familiaris with 40 samples.

Results

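The 28 genes described here were chosen from the expression values of dog granulocytes, as genes whose usual level was higher in the granulocytes of tumor-bearing dogs than in those of healthy dogs. Levels are in CPM, the reads counted on a gene scaled to the same total of reads in every library. Of the 24580 canine genes in the tables, those under 20000 CPM in every library were considered. A gene was kept if its mean in H PMNs, the neutrophils of healthy dogs, was at least 2 CPM and less than 20-fold apart from its mean in H Monos, the monocytes of healthy dogs. Its median in C PMNs, the neutrophils of tumor-bearing dogs, had to reach 10 CPM, and its medians in C PMNs and in PMN-MDSCs each had to reach 3 times the H PMN mean. The limits on level and on the healthy ratio were met by 4456 genes. Of these, 37 reached the fold limit in C PMNs (0.83%), 159 in PMN-MDSCs (3.57%) and 28 in both (0.628%). Because the rule used these values, the differences among H PMNs, C PMNs and PMN-MDSCs are a description. The fits of these contrasts given further on are no test of the members. A raised median did not mean that every library was raised. No member had every C PMN library above all H PMN libraries, as 0.0276% of the genes tested did, so the genes are called members of the set chosen by medians and not genes raised in all granulocytes.

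RNA was sequenced from 40 libraries of flow-sorted blood cells, from healthy dogs and from dogs with spontaneous tumors. The H PMN (n = 5) and C PMN (n = 10) libraries came from MHCII-CD11b+CADO48A+ cells of normal density, CADO48A being a marker of canine neutrophils, and the H Mono (n = 3) and C Mono (n = 8) libraries from MHCII+CD11b+CD14+ cells. PMN-MDSCs (n = 9, MHCII-CD11b+CD14-CADO48A+) and M-MDSCs (n = 5, MHCII-CD11b+CD14+CADO48A-) were sorted from the low-density mononuclear layer of tumor-bearing dogs, and all cells were CD5-CD21-. The study assayed T cell suppression by PMN-MDSCs and not by M-MDSCs. No breed, age or tumor type is tied to a library in the labels, nor is a dog, so libraries of different populations may come from the same animals. The series description counts 9 dogs for C PMNs and 8 for PMN-MDSCs, against 10 and 9 libraries here, so n counts libraries. Whether a dog is present more than once in a group or a library was left out by the study is not given in the sources used here. Each C PMN and PMN-MDSC library is named by a replicate number that only tells the libraries of a group apart, and the same number in different groups does not mean the same dog.

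Neutrophils are short-lived granulocytes that leave the marrow with a dense cytoplasm of granules and relatively little RNA. Myeloid-derived suppressor cells are neutrophil-like or monocyte-like cells that accumulate in cancer and restrain T cells. Blood neutrophils and monocytes share receptors for cytokines and microbial products. The tables name genes by Ensembl identifier alone, and none of the 24580 identifiers could be paired with a symbol. The members are therefore numbered from 1 to 28 in falling order of their C PMN median in CPM, which is not a ranking per length of transcript. The identifiers of members 1 and 2 are ENSCAFG00000023556 and ENSCAFG00000019348, and the roles of the proteins are not given.

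The libraries held between 4229857 and 60473238 counts on genes. C PMN replicate 7 (4229857 counts) and PMN-MDSC replicate 9 (6299310 counts) were the only libraries under 10000000, and detected 3470 and 3959 genes by 10 counts or more, whereas the other libraries detected 9480 to 12466. With both left out, 40 genes met the rule, all 28 members among them. The titles place the libraries in a GAR4079 series, which holds every healthy library, and a PAT4694 series. C PMN replicates 7 to 10, PMN-MDSC replicates 6 to 9, C Mono replicates 5 to 8 and M-MDSC replicates 4 and 5 were in the PAT4694 series. In the GAR4079 series alone 22 genes met the rule, 16 of them members and 6 of them not. Members 2, 3, 5, 7, 8, 9, 15, 17, 19, 21, 24 and 26 did not hold there. All 28 members kept a PMN-MDSC median of at least 3 times the H PMN mean in the GAR4079 series, and 16 kept such a C PMN median. In the PAT4694 libraries the same held for 24 members in PMN-MDSCs and 25 in C PMNs.

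Across the members the H PMN mean lay between 2.25 and 97.6 CPM, with a median over members of 13. The C PMN medians lay between 10.3 and 825 CPM and the PMN-MDSC medians between 9.88 and 3021 CPM. The ratio of the C PMN median to the H PMN mean ran from 3.09 (member 28) to 17.3 (member 4), with a median of 5.74. For PMN-MDSCs it ran from 3.01 (member 8) to 1091 (member 27), with a median of 5.43. The PMN-MDSC median was above the C PMN median in 14 members and below it in 14. The 3 members just inside the limit had a smaller ratio of 3.01 (member 8), 3.09 (member 28) and 3.17 (member 19), and the 3 genes just outside had 2.84, 2.86 and 2.99. No gap in the values separates members from other genes at the limit.

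In most members the same C PMN libraries were high and the same were low. C PMN replicates 3, 4, 5, 8, 9 and 10 were the libraries at or above 3 times the H PMN mean in 20 of 28 members, and replicates 3, 4, 8, 9 and 10 in another 2. In PMN-MDSCs the corresponding libraries were replicates 1, 2, 3, 7 and 8 in 19 members. The fold limit on a median requires about as many libraries as this, so their number follows from the rule, whereas the rule does not say which they are. Both patterns together were seen in 17 members. C PMN replicates 3 and 10 were above every H PMN library in all 28 members, against 16.7% and 18% of the 10871 genes tested. C PMN replicates 1, 2, 6 and 7 were above every H PMN library in 6, 5, 7 and 2 members, against 10.9%, 12.2%, 10.3% and 8.64% of genes. They lay below the H PMN mean in 20, 23, 20 and 21 members. These values are plain CPM. The TMM factor, a scaling for the composition of a library, was 0.149 in C PMN replicate 7 and 0.15 in PMN-MDSC replicate 9. It was 0.82 to 1.07 in H PMNs. Divided by it, the CPM of both libraries would be much higher relative to H PMNs, so their low place is given for plain CPM alone. In PMN-MDSC replicates 1, 2 and 7 all 28 members were above every H PMN library, against 34.4%, 37% and 31.1% of the 11372 genes tested. In PMN-MDSC replicates 4, 5, 6 and 9 the number was 8, 8, 10 and 2, against 33%, 34.4%, 37.5% and 11.5%. Of the low C PMN libraries, replicates 1, 2 and 6 were in the GAR4079 series and replicate 7, in the PAT4694 series, was shallow, and the 3 deeper PAT4694 libraries were all high. Of the low PMN-MDSC libraries, replicates 4 and 5 were in the GAR4079 series, replicate 6 was a deeper PAT4694 library and replicate 9 a shallow one. The part of series and depth in the pattern was not tested.

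**Figure D1:**
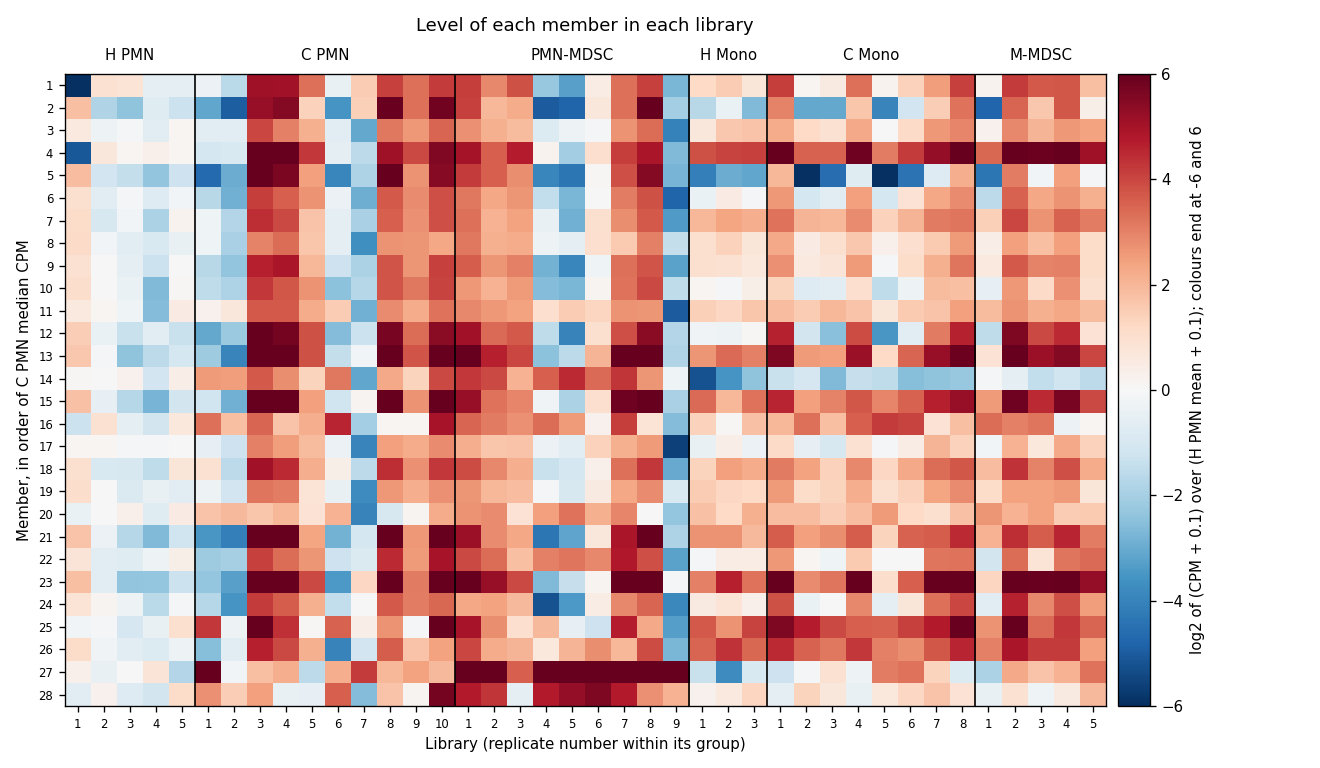
Each square is 1 member (rows, numbered from 1 to 28 by C PMN median) in 1 library (columns, replicate numbers within the 6 groups), colored by log2 of its CPM plus 0.1 over the H PMN mean plus 0.1. C PMN replicates 3 and 10 and PMN-MDSC replicates 1, 2 and 7 are red throughout. C PMN replicates 1, 2 and 6 are mostly blue apart from members such as 14, 16, 20 and 28. C PMN replicate 7 is mostly blue apart from members such as 1, 2, 23 and 27.

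The level of the whole set in a library was summarized as the median over the members of log2 (CPM + 0.1) over the H PMN mean with the same pseudocount. H PMN replicates 1 to 5 had 0.94, -0.15, -0.63, -1.0 and -0.03. The C PMN libraries had a lowest value of -1.71 (replicate 2), a median of 2.41 and a highest of 4.34 (replicate 3), with a mean of 1.60 ± 2.52 (SD, n = 10). Replicates 3, 10, 4, 8, 9 and 5 had 4.34, 4.15, 3.84, 3.67, 2.67 and 2.16, and the other 4 were between -1.71 and -0.59, within or below the range of the H PMN libraries. The PMN-MDSC libraries had a lowest value of -2.63 (replicate 9), a median of 2.35 and a highest of 3.98 (replicate 1), with a mean of 1.43 ± 2.39 (SD, n = 9). Here PMN-MDSC replicate 6, at 0.81, stood between the 5 higher libraries and replicates 4, 5 and 9, and was inside the range of the H PMN libraries. Without the shallow libraries the lowest values were -1.71 in C PMNs and -1.22 in PMN-MDSCs, both under the lowest H PMN library. All these values are of plain CPM. Those of the shallow C PMN replicate 7 and PMN-MDSC replicate 9 would be much higher with their TMM factors of 0.149 and 0.15.

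**Figure D2:**
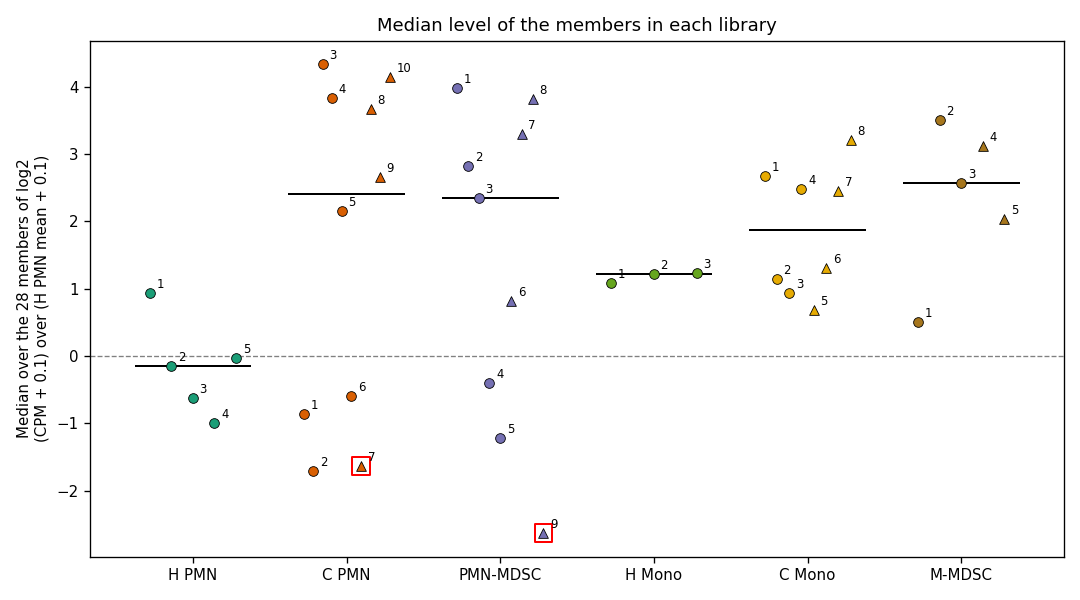
The vertical axis is the median over the 28 members of log2 of CPM plus 0.1 over the H PMN mean plus 0.1, with 1 point per library; circles are the GAR4079 series, triangles the PAT4694 series, red squares the libraries under 10000000 counts, bars the group medians and digits the replicate numbers. The C PMN values run from -1.71 to 4.34 while the 3 H Mono values lie between 1.09 and 1.24.

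Member 1 (ENSCAFG00000023556) had 0.711, 157, 151, 56.8 and 56.0 CPM in H PMN replicates 1 to 5. Its C PMN values ran from 27 (replicate 2) over a median of 825 to 2912 (replicate 3), and its PMN-MDSC values from 8.68 (replicate 5) over a median of 629 to 1514 (replicate 1). H PMN replicate 1 stood far below the other healthy libraries, with 39 reads, and C PMN replicates 1, 2 and 6 and PMN-MDSC replicates 4, 5, 6 and 9 fell within the H PMN range. In C PMNs its mean was 1078 ± 1091 CPM (SD, n = 10) and in H PMNs 84.4 ± 67.7 (SD, n = 5). Member 4 also had 39 reads, or 0.711 CPM, in H PMN replicate 1, against 43.4, 29.9, 33.4 and 29.7 CPM in replicates 2 to 5. The other H PMN libraries were close to each other for member 4, and replicate 1 was low although it was the H PMN library with the highest level in 19 of the 28 members.

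Member 2 (ENSCAFG00000019348) had 335, 27.3, 17.6, 56.5 and 38.5 CPM in H PMN replicates 1 to 5. In C PMNs it ran from 3.03 (replicate 2) over a median of 599 to 5872 (replicate 8), and in PMN-MDSCs from 2.88 (replicate 4) over a median of 382 to 6507 (replicate 8). Here H PMN replicate 1 was the high library, and C PMN replicates 5 and 7, at 247 and 252 CPM, were above the other healthy libraries but below it. C PMN replicates 1, 2 and 6 and PMN-MDSC replicates 4 and 5 were lower than any H PMN library. The mean in C PMNs was 2045 ± 2411 CPM (SD, n = 10) and in H PMNs 94.9 ± 135 (SD, n = 5), so that the SD exceeded the mean in both groups.

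**Figure D3:**
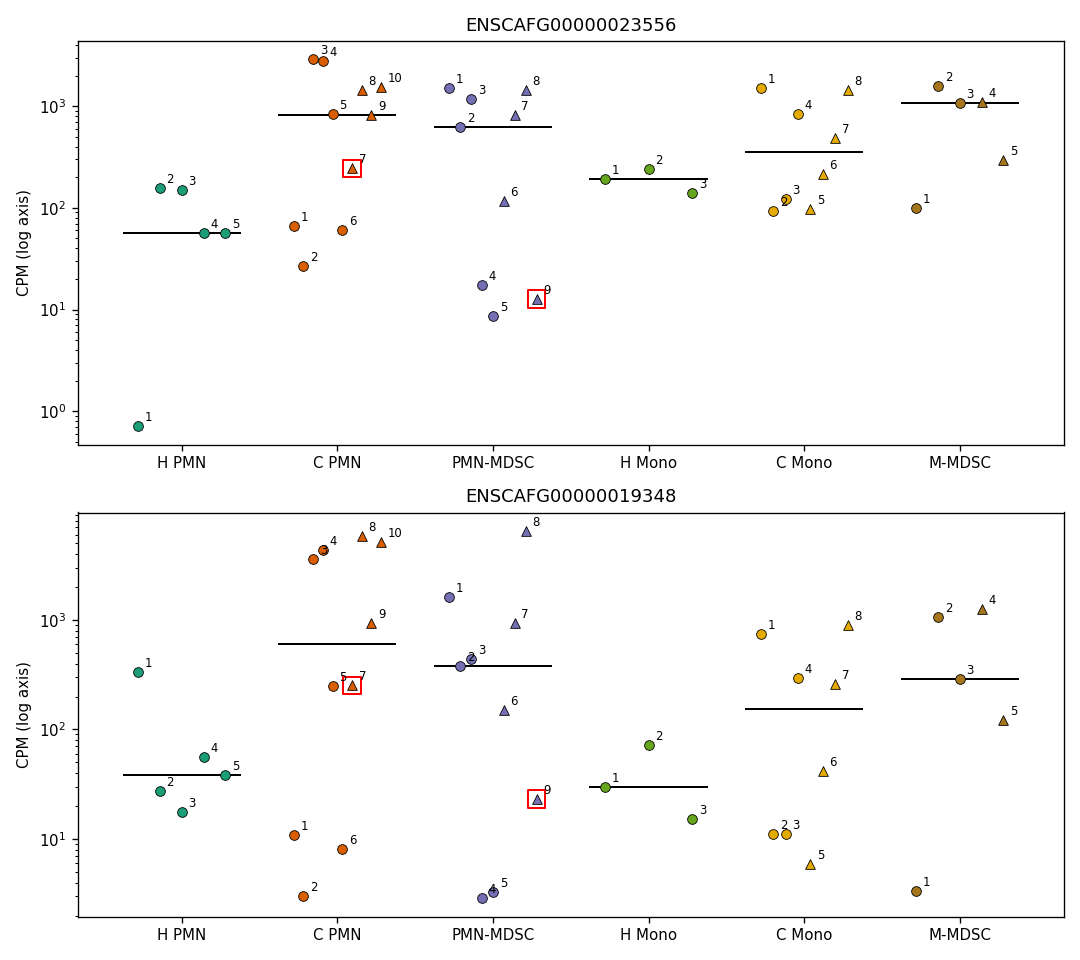
CPM on a log axis in each library for member 1 (top) and member 2 (bottom), with symbols as in the plot of library medians: circles GAR4079, triangles PAT4694, red squares shallow libraries and bars group medians. H PMN replicate 1 is the lowest healthy neutrophil library for member 1 (0.711 CPM) and the highest for member 2 (335 CPM).

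Member 23 showed the widest contrast between the high and the low libraries among members of the shared pattern that are described here. Its H PMN values were 8.24, 1.44, 0.353, 0.364 and 0.850 CPM. In C PMNs it was at 0.117 CPM in replicate 6 and at 670 in replicate 3, and C PMN replicates 1, 2 and 6 were all below 1 CPM. Member 5 behaved similarly, with 214, 27, 21.9, 11.5 and 25.4 CPM in H PMN replicates 1 to 5 and between 2.30 (replicate 1) and 5052 CPM (replicate 3) in C PMNs.

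Members 14, 16, 20, 25, 27 and 28 departed from the shared pattern of C PMN libraries. Member 14 had 13.7, 13.1, 15.6, 5.82 and 17.3 CPM in the H PMN libraries, and 77.9, 74.7 and 117 CPM in C PMN replicates 1, 2 and 6, which were low for most other members. Its highest C PMN value was 206 CPM (replicate 10) and its lowest 1.42 CPM (replicate 7, a shallow library). C PMN libraries were above every H PMN library for member 14 in 9 of 10 cases, the most of any member. Member 16 had 5.80, 26.6, 9.40, 6.47 and 22.3 CPM in H PMNs and 142, 50.2 and 342 CPM in C PMN replicates 1, 2 and 6, whereas C PMN replicates 8 and 9, high for most members, had 15.5 and 15.4. Member 16 therefore separated the C PMN libraries differently from members 1 and 2.

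Member 27 was the only one whose PMN-MDSC libraries were all above all H PMN libraries, against 0.686% of the 11372 genes tested. It had 3.39, 2.03, 2.83, 4.83 and 0.762 CPM in H PMN replicates 1 to 5. In PMN-MDSCs it ran from 34.7 (replicate 3) over a median of 3021 to 17461 CPM (replicate 9), and in C PMNs from 0.879 (replicate 5) over a median of 12.1 to 265 CPM (replicate 1). Its PMN-MDSC median was 250 times its C PMN median, whereas this ratio had a median of 0.986 over the members. Without PMN-MDSC replicate 9 the highest value was 3619 CPM (replicate 6), and the lowest was unchanged. Its H Mono libraries had 1.02, 0.111 and 1.43 CPM. For a single gene, a share of cells that express it cannot be told apart from its level per cell in these bulk libraries, nor can fewer cells of a type be told apart from less RNA per cell.

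In edgeR's quasi-likelihood test, with p-values adjusted over all genes tested, no gene was called between C PMNs and H PMNs at an FDR of at most 0.05 (0% of 10871 genes), and so no member was, although all 28 had an unadjusted p under 0.05, against 9.22% of genes. The rule chose the members on this contrast. DESeq2 called 237 genes (1.1%), 26 of them members, and edgeR in the GAR4079 series alone called 94 (0.881%), 4 of them members. Between PMN-MDSCs and H PMNs 1053 of 11372 genes were called (9.26%), 9 of them members (13, 14, 16, 20, 22, 23, 26, 27 and 28), and without PMN-MDSC replicate 9 these numbers were 2268 (20%) and 18. DESeq2 called 2658 genes (12.6%) and 26 members. These counts are not evidence for the members. The medians of both PMN-MDSCs and C PMNs entered the rule, so the fit between them is a description and no test of the members. In it 1032 of 10278 genes were called (10%) and 1 member, member 27. Its log2 fold change was 7.53 ± 1.56 (SE, adjusted p = 0.00374, edgeR). The fold change was above 0 in 4 members and below 0 in 24 there, against 49.2% of genes above 0. Genes chosen on these libraries need not split as all genes do, so this share is not a reference for the members. The median over members was -0.85 and lay between -1.17 and -0.55 when any 1 library was left out. By group medians, in contrast, the PMN-MDSCs were above the C PMNs in 14 members and below them in 14.

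The spread of the members between libraries was set beside that of other genes. In H PMNs, C PMNs, PMN-MDSCs and H Monos the values entered the rule, so their spread is a description of the choice, whereas C Monos and M-MDSCs did not enter it. The SD of log2 (CPM + 0.1) over the H PMN libraries had a median of 0.98 over the members, against 0.39 over the 7772 genes whose mean in this group reached 2 CPM. Over the C PMN libraries the SD had a median of 2.70 against 1.39, and over the PMN-MDSC libraries 2.64 against 1.71. In C Monos it was 1.10 against 0.42, with all 28 members above the median gene. In M-MDSCs it was 1.32 against 0.53, with 26 of 28 members above the median gene. In the 3 H Mono libraries, where 26 members had a mean of at least 2 CPM, it was 0.43 against 0.33. In fold terms, the highest and the lowest C Mono library differed 9.10-fold for the median member and 2.37-fold for the median gene, and in M-MDSCs 8.81-fold and 2.48-fold.

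RNA typical of each lineage was followed with a pair of lists of 50 genes each, drawn from the healthy libraries alone as genes of at least 50 CPM and at least 50-fold higher in one lineage. Every library of that lineage also had to be above every library of the other. Each list keeps the 50 genes of highest mean, of 210 that met the limits for H Monos and 51 for H PMNs. They can hold no member, since members were less than 20-fold apart between H PMNs and H Monos. The H Mono list summed to between 101199 and 118803 CPM in H Monos, and to between 365 and 775 CPM in H PMNs. In C PMN replicates 3, 10, 4, 8, 9 and 5, where the members were high, it summed to 270, 1046, 1634, 600.5, 816 and 307 CPM. In C PMN replicates 1, 2, 6 and 7, where they were low, it summed to 1283, 358, 1006 and 3505 CPM. The list was thus lower in C PMN replicate 3, the highest library of the set, than in any H PMN library. In PMN-MDSC replicates 1, 2, 3, 7 and 8 it summed to 8766, 7637, 596, 6734 and 2378 CPM, and in replicates 4, 5, 6 and 9 to 10667, 9695, 12317 and 3804 CPM. The members themselves summed to between 18119 and 23325 CPM in C PMN replicates 3, 4, 8 and 10, more than in any H Mono library (1627 to 2008 CPM) or C Mono library (1284 to 8887 CPM). The most abundant gene of the H Mono list made up 16.2% of its sum in H Monos. Of its 50 genes 2 were at 0 in H PMN replicate 3 and 1 each in H PMN replicate 2, C PMN replicates 5 and 7 and PMN-MDSC replicate 9, with none at 0 in the other libraries. Whether these cells took part in the differences was not tested.

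H PMNs had the lowest median of the 6 populations in 23 members and H Monos in the other 5. The rule set the C PMN and PMN-MDSC medians above the H PMN mean, so the low place of H PMNs against them follows from the choice. M-MDSCs had the highest median in 15 members, PMN-MDSCs in 7, C PMNs in 5 and C Monos in 1. No share over all genes is given for this order. This order and the other levels compared here are of plain CPM. TMM factors were 1.30 to 1.59 in the monocytic libraries. In the granulocyte libraries they were 0.641 to 1.07, and lower still in the shallow C PMN replicate 7 and PMN-MDSC replicate 9. Divided by them, monocytic levels would be lower relative to granulocytes, so the order between lineages is given for plain CPM alone. The median over the members of the group medians was 11.5 CPM in H PMNs, 35.4 in H Monos, 65.4 in C Monos, 73.5 in C PMNs, 93.0 in M-MDSCs and 93.6 in PMN-MDSCs. The median log2 ratio of the members to the H PMN mean overlapped between the libraries of the last 4 populations, with ranges of 0.68 to 3.22 in C Monos, -1.71 to 4.34 in C PMNs, 0.50 to 3.51 in M-MDSCs and -2.63 to 3.98 in PMN-MDSCs. The H Mono mean was above the H PMN mean in 22 members and below it in members 2, 5, 12, 14, 17 and 27. This ratio ran from 0.0930 (member 14) to 15.9 (member 4), inside the limit that the rule set.

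Monocytes of tumor-bearing dogs did not enter the rule, and they too fell into libraries with high and with low levels of the members. C Mono replicates 1, 4, 7 and 8 were above every H Mono library in 25, 24, 24 and 26 of the 28 members, against 19.6%, 20.9%, 29% and 25% of the 12566 genes tested. C Mono replicates 2, 3, 5 and 6 were so in 5, 4, 4 and 10 members, against 29.3%, 27.4%, 29% and 27.3% of genes. M-MDSC replicates 2, 3, 4 and 5 were above every H Mono library in 26, 25, 24 and 21 members, against 32.7%, 16.5%, 27.5% and 30.3% of 11965 genes, and replicate 1 in 4 members, against 26.2%. The counts for replicates 1, 4, 7 and 8 of C Monos and 2 to 5 of M-MDSCs were well over those shares of 28 genes, while the others were near or under them. Against the H Mono mean, the members' median log2 ratio was 1.40, -0.28, -0.46, 1.22, -0.83, 0.18, 1.29 and 1.83 in C Mono replicates 1 to 8. It was -0.70, 2.52, 1.31, 2.15 and 0.94 in M-MDSC replicates 1 to 5, and -0.13, 0.16 and 0.13 in H Mono replicates 1 to 3.

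For member 1 the H Mono libraries had 193, 243 and 140 CPM, the C Mono libraries ran from 92.5 (replicate 2) over a median of 350.5 to 1512 (replicate 1), and M-MDSC replicates 1 to 5 had 99.1, 1562, 1068, 1110 and 292 CPM. C Mono replicates 1, 4, 7 and 8 and M-MDSC replicates 2 to 5 were above all H Monos, and C Mono replicates 2, 3 and 5 and M-MDSC replicate 1 were below all of them. For member 2 the H Mono libraries had 29.7, 72.5 and 15.2 CPM, the C Mono libraries ran from 5.92 (replicate 5) over a median of 152 to 907 (replicate 8), and M-MDSC replicates 1 to 5 had 3.36, 1054, 289, 1267 and 123 CPM. The same libraries were above and below the H Monos for member 2 as for member 1. Member 5 was low in H Monos, at 3.40, 7.64 and 6.73 CPM, and reached 272 CPM in C Mono replicate 8 and 509 CPM in M-MDSC replicate 2, against 0.258 CPM in C Mono replicate 5. Member 14, which departed from the shared pattern in C PMNs, did so here as well, with 0.250, 1.04 and 2.36 CPM in H Monos, 2.03 to 6.51 in C Monos and 12.1, 9.13, 4.62, 5.63 and 4.40 in M-MDSC replicates 1 to 5. For that member every M-MDSC library was above every H Mono library, although all its monocytic values were under 13 CPM.

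Tests between monocytic populations asked whether the members also differed in cells other than granulocytes. Most members were high and low in the same libraries. In every such comparison a count of members is therefore not a count of independent observations. C Monos and M-MDSCs did not enter the rule, but the H Mono mean did, through its ratio to the H PMN mean, and 35 genes met the rule without that limit. The comparisons with H Monos are therefore not fully independent of the choice of members. Dogs that gave granulocyte libraries may also have given monocytic libraries, which the labels do not tell. All comparisons of monocytic libraries could then depend on the choice of members through shared dogs, and this was not tested. Between C Monos and H Monos no gene was called by edgeR (0% of 12566), and 938 genes had an unadjusted p under 0.05 (7.46%). Of the members 4 had such a p (members 14, 16, 25 and 27), and the smallest adjusted p among the members was 0.639. The log2 fold change was above 0 in all 28 members, against 51.6% of genes, with a range of 0.04 to 3.73 and a median of 1.24, or 2.36-fold, against 0.01 over all genes. DESeq2 called 63 genes in this comparison (0.345%) and none of the members. Of the members 14 had an unadjusted p under 0.05 by DESeq2, against 1331 of 18248 genes. The number of members with such a p in edgeR was 14 without C Mono replicate 5 (787 of 12540 genes tested) and 12 without C Mono replicate 2 (989 of 12502). It was 10 without C Mono replicate 3 (1217 of 12462) and 7 without C Mono replicate 6 (844 of 12564). Without H Mono replicate 1 it was 2 (729 of 13022), and without H Mono replicate 2 it was 0 (900 of 13047). No member passed the adjusted threshold, which does not show that the levels were the same. For members 16 and 27, picked as those with the most, 7 of 8 C Mono libraries were above every H Mono library. Their log2 fold changes were 1.93 ± 0.70 and 3.41 ± 1.19 (SE). Member 20 had the fewest, 1 of 8, with 0.05 ± 0.30 (SE). The share of all genes with 7 of 8 is not given.

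M-MDSCs were compared with the same 3 H Mono libraries, which the comparison above also used. By edgeR 28 of 11965 genes were called (0.234%) and no member was, with a smallest adjusted p among members of 0.256 (member 5). An unadjusted p under 0.05 was found for 20 of 28 members, against 9.19% of genes. Without H Mono replicate 1 it was found for 12 members and 792 of 12397 genes. Without H Mono replicate 3 it was found for 11 members and 778 of 12354 genes. All 28 fold changes were above 0, against 50.8% of genes, with a range on the log2 scale of 0.10 (member 28) to 5.06 (member 5) and a median of 1.75, or 3.37-fold, against 0.01 over all genes. Since most members shared their high and low libraries, these are not 28 independent observations. Member 1 had a log2 fold change of 2.18 ± 0.77 (SE, adjusted p = 0.396) and member 2 of 3.87 ± 1.44 (SE, adjusted p = 0.429, both by edgeR). Members 11 and 14 had every M-MDSC library above every H Mono library, against 2.69% of genes. The H PMN list also differed between these groups, with sums of 552, 651 and 336 CPM in H Mono replicates 1 to 3 and 4154, 2776, 4504, 4865 and 4751 CPM in M-MDSC replicates 1 to 5, which did not overlap. Its most abundant gene made up 31.2% of its sum in H PMNs, and at most 2 of its 50 genes were at 0 in any of these libraries. M-MDSC replicate 2, where the members were highest, had the lowest sum of this list among the M-MDSCs. The H Mono list summed to between 101199 and 118803 CPM in H Monos and to between 64129 and 90875 CPM in M-MDSCs, also without overlap. Both lists were chosen on these H Mono libraries, as genes low there for the H PMN list and high there for the H Mono list. The gaps between H Monos and M-MDSCs therefore follow in part from that choice. The part of the RNA of either list in the result was not tested. Without M-MDSC replicate 1, the library with low levels of the members, 4 members were called and 57 of 11788 genes in all. DESeq2 on all libraries called 356 genes (2.09%) and 9 members.

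**Figure D4:**
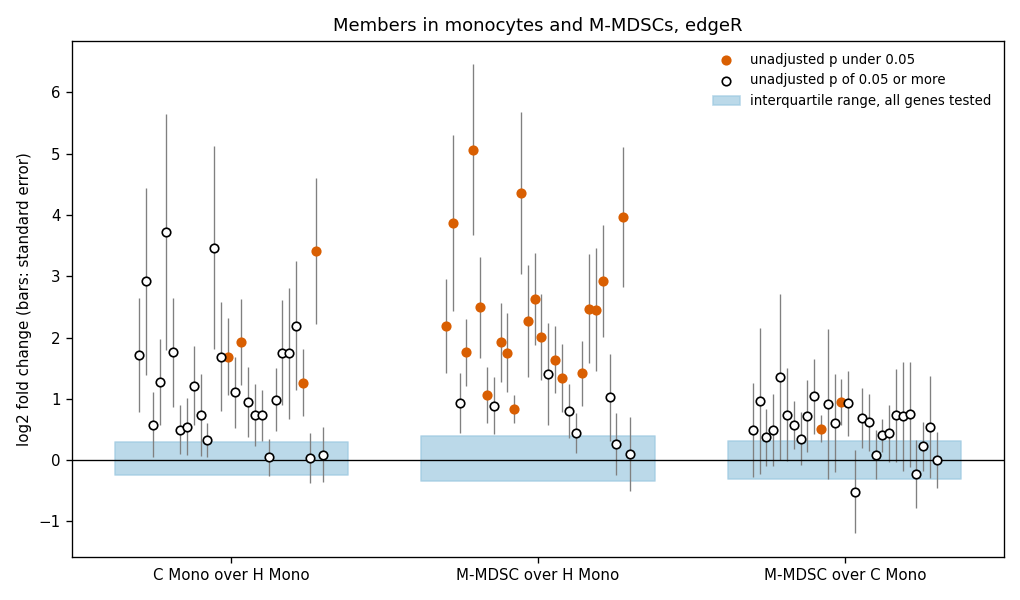
Each point is the log2 fold change of 1 member from edgeR, in order of member number from left to right within a comparison, with its standard error; filled points have an unadjusted p under 0.05 and the blue band holds the interquartile range of all genes tested. All members lie above 0 in C Monos over H Monos (median 1.24) and in M-MDSCs over H Monos (median 1.75), and 26 of 28 in M-MDSCs over C Monos (median 0.59), with no member called after adjustment.

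Neither M-MDSCs nor C Monos entered the rule, although their dogs may be those of the granulocyte libraries. Between M-MDSCs and C Monos 90 of 11874 genes were called by edgeR (0.758%) and no member was. An unadjusted p under 0.05 was found for 2 members (11 and 14), against 13.7% of genes, and for 1 to 4 when any 1 library was left out. The genes with such a p then numbered 1441 to 1936. The fold change was above 0 in 26 members, against 49.7% of genes, and below 0 in members 16 and 25. Its median was 0.59 on the log2 scale, against -0.00 over all genes, with a range of -0.52 to 1.36. The H PMN list summed to between 301 CPM (replicate 7) and 2019 CPM (replicate 5) in C Monos, with a mean of 899 ± 596 (SD, n = 8), and to 4210 ± 847 CPM (SD, n = 5) in M-MDSCs, without overlap, and its part in the members' fold changes was not tested. Between 0 and 12 of its genes were at 0 in the C Mono libraries. The H Mono list summed to between 95672.5 and 130494 CPM in C Monos and to between 64129 and 90875 CPM in M-MDSCs. These did not overlap either, and the part of this list was not tested. Member 1 differed by 0.49 ± 0.77 (SE, adjusted p = 0.827) and member 2 by 0.96 ± 1.19 (SE, adjusted p = 0.773, both by edgeR), and for each the standard error was larger than the difference. DESeq2 called 609 genes (3.33%) and again no member. These adjusted p-values do not show that the populations have the same levels, since the errors allow differences of more than 2-fold.

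The library series was tested across C Monos and M-MDSCs with the population as a term, because all healthy libraries belong to the GAR4079 series. By edgeR 92 of 13120 genes were called between the PAT4694 and GAR4079 series (0.701%) and no member was. Members 27 and 28 had an unadjusted p under 0.05, against 13.3% of genes. The fold change was above 0 in 17 members, against 47.5% of genes, and below 0 in 11, with a median of 0.09 on the log2 scale. The median lay between -0.35 and 0.37 when any 1 library was left out, and was below 0 without C Mono replicate 2, 3, 7 or 8 or M-MDSC replicate 1 or 4. DESeq2 called 617 genes (3.36%), 1 of them a member. Member 27 had the largest fold change between the series, 2.04 ± 0.71 on the log2 scale (SE, adjusted p = 0.208, edgeR). In C Monos it was at 1.11, 2.56, 5.32 and 2.25 CPM in the GAR4079 libraries and at 23.9, 27.1, 7.15 and 1.53 CPM in the PAT4694 libraries, and these overlapped.

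The length of the members' transcripts was described beside that of other genes. The level limits of the rule are in CPM, which grows with transcript length, so genes that met these limits are given as well. The ratio of CPM to TPM in a library is proportional to the transcript length behind the TPM values, and it was set to a median of about 1 within each library. Over the 4456 genes that met every limit but the fold limits the quartiles were 0.606 and 1.98 with a median of 1.14, and over the members 1.05 and 2.40 with a median of 1.60. Over 11543 genes with enough reads the median was 0.982. Per length, the C PMN medians of the members ran from 4.50 TPM (member 28) to 763 TPM (member 2), with a median over members of 44.1, and the PMN-MDSC medians from 2.56 TPM (member 25) to 5846 TPM (member 27), with a median of 44.4. With the same limits applied to TPM, 22 genes met the rule, all of them members, and 6 members did not.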

How the data were processed

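The authors sequenced Smart-seq2 libraries as read pairs, aligned reads by HISAT2 against the CanFam3.1 genome plus ERCC spike-ins, marked duplicates with Picard 1.92 and made the deposited counts, not normalized, with featureCounts of Subread 1.5.0. Removal of duplicates is not given in the sources used here. The deposited CPM values equaled counts over the library total on genes and spike-ins, and the authors also deposited TPM values, whose gene lengths are not given. A copy of the CPM table was not used. Spike-ins made up at most 0.000275% of counts and were left out of the tests. The lowest chi-square per degree of freedom between libraries of a group was 96.7, so none was the same library deposited again. Repeat preparations or samples of a dog would not be seen in this way.

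The rule was applied to CPM. Counts were fitted with edgeR 4.0.16 (quasi-likelihood, TMM, filterByExpr, Benjamini-Hochberg, FDR of 0.05) in R 4.3.3, for the libraries of the groups compared, and with DESeq2 1.42.0 as an alternative. All 28 members passed the filter on low counts in each of the 7 comparisons. Log ratios used a pseudocount of 0.1 CPM. Tables were handled with pandas 2.3.3 in Python 3.11.15. On simulated counts with 200 genes changed 4-fold, edgeR called 68% of them between M-MDSCs and C Monos, 60% between C Monos and H Monos, 49% between M-MDSCs and H Monos, 61.5% between library series, 47.5% between C PMNs and H PMNs, 25% between PMN-MDSCs and H PMNs and 46% between PMN-MDSCs and C PMNs. The members and the lists were chosen with earlier results of these data known. Identifiers were to be printed for the 2 members with the highest C PMN median if no symbols were found, and other members were given values by library where they showed or departed from the shared pattern, a choice made after seeing the values. No identifier matched the 43286 genes of the reference table (assembly UU_Cfam_GSD_1.0), so that pathway lists, cell type markers and promoters were not used. All p-values are two-sided. They set a difference against the spread between libraries, which are not tied to dogs, and counts are of reads and not of molecules.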

Additional observations from a re-analysis of the deposited data

Results flagged for a closer look

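In groups of 4 to 10 libraries, the highest and lowest library was compared with the gap to its neighbor as a share of the range (Dixon's test). Over 65 such sets of values 11 values stood out, from 5 libraries, where chance gives about 1 in 20 for normally distributed values. The values were not on a log scale and all 11 were the highest of their group, so that share is no reference here. The sets are not independent, since they are measures of the same libraries. H PMN replicate 1 stood out in 4 of them. Its summed CPM of the members was 1279, against 609 in the next library, and its CPM of members 2, 5 and 23 was 335, 214 and 8.24, against 56.5, 27 and 1.44 in the next. PMN-MDSC replicate 8 was far above the other PMN-MDSCs for member 2 (6507 CPM, next 1633) and member 5 (2719 CPM, next 1097). Member 27 stood out in C PMN replicate 1 (265 CPM, next 53.2) and in the shallow PMN-MDSC replicate 9 (17461 CPM, next 3619). The H PMN list summed to 279496 CPM in C PMN replicate 7, against 155658 in the next C PMN library, and to 402814 CPM in PMN-MDSC replicate 9, against 159113 in the next PMN-MDSC library. The H Mono list summed to 3505 CPM in C PMN replicate 7, against 1634 in the next. C PMN replicate 7 and PMN-MDSC replicate 9 are the libraries of lowest depth, and the part of depth in these values was not tested.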

How the results depend on the processing

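No paired analysis was possible because the labels give no replicate numbers and tie no library to a dog. The members rest on medians of few libraries: when single libraries were removed, 19 to 34 genes met the rule, with 19 to 28 of the members among them, and the lowest count came without PMN-MDSC replicate 1. With means for C PMNs and PMN-MDSCs 48 genes met it, with a fold limit of 2 54 genes, and with TMM factors 35 genes, 25 of them members. Depth limits C PMN replicate 7 and PMN-MDSC replicate 9, where the least abundant members had 2 reads and 1 read. The cause of the differences between settings was not tested.

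DESeq2 called 609 genes between M-MDSCs and C Monos, 63 between C Monos and H Monos and 356 (9 members) between M-MDSCs and H Monos. It called 617 (1 member) between library series and 237 (26 members) between C PMNs and H PMNs. Between PMN-MDSCs and H PMNs it called 2658 (26 members), and between PMN-MDSCs and C PMNs 2443 (1 member). In the GAR4079 series alone edgeR called 0 genes between M-MDSCs and C Monos and 94 (4 members) between C PMNs and H PMNs. There it called 2575 (12 members) between PMN-MDSCs and H PMNs and 1954 (1 member) between PMN-MDSCs and C PMNs. With library series as a term it called 7 genes between M-MDSCs and H Monos and 2 between C PMNs and H PMNs. Between PMN-MDSCs and H PMNs it then called 651 (7 members). Without the shallow libraries it called 2268 genes (18 members) between PMN-MDSCs and H PMNs and 2355 (1 member) between PMN-MDSCs and C PMNs. Without a filter on low counts it called 44 genes between M-MDSCs and H Monos. Members with an unadjusted p under 0.05 between C Monos and H Monos numbered 14 by DESeq2, against 1331 of 18248 genes. They numbered 7 without the filter (1398 of 18342 genes) and 2 with the series as a term (541 of 12566 genes).

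With 1 library left out, edgeR called 21 to 184 genes between M-MDSCs and C Monos, 0 to 6 between C Monos and H Monos, 0 to 57 between M-MDSCs and H Monos, 33 to 127 between library series, 0 to 1 between C PMNs and H PMNs, 277 to 2268 between PMN-MDSCs and H PMNs and 715 to 2039 between PMN-MDSCs and C PMNs. Members called numbered 0 to 4 between M-MDSCs and H Monos, 4 to 18 between PMN-MDSCs and H PMNs, 1 to 2 between PMN-MDSCs and C PMNs and 0 in the other 4 comparisons. Genes tested then numbered 11788 to 12440 between M-MDSCs and H Monos. They numbered 11148 to 11725 between PMN-MDSCs and H PMNs and 10024 to 10499 between PMN-MDSCs and C PMNs. Members with an unadjusted p under 0.05 numbered 1 to 4 between M-MDSCs and C Monos and 0 to 14 between C Monos and H Monos. Between M-MDSCs and H Monos they numbered 11 to 23. Over all genes tested the numbers were 1441 to 1936, 655 to 1217 and 778 to 1243. The members' median log2 fold change stayed between 0.29 and 0.82, 0.96 and 1.37, and 1.55 and 2.03 in these 3 comparisons.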
